A study of Sus scrofa with 10 samples.

Results

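Blood of newborn pigs (D0) was compared with blood of pigs at 28 days of age (D28), the start and the end of the suckling period. The comparison rests on 4 of the 10 libraries of the series, assigned by their age labels, namely 2 pigs at D0 and 2 pigs at D28. Another 2 libraries from pigs at 7 days of age (D7) were used to see how much of each change had been reached by then. All pigs were healthy female Qingyu pigs, a local Chinese breed, and each library came from the whole blood of a different animal, and no pig was sampled at more than 1 age. Total RNA was isolated with Trizol, depleted of ribosomal RNA and sequenced, with 1 library per pig. The deposited values are FPKM, sequenced fragments divided by transcript length and by library size, for 12354 mRNAs and 5946 long noncoding RNAs (lncRNAs). Nothing in the labels names a treatment, so age is what separates the groups, together with anything else that differed between the sampling days. Whole blood holds many cell types, so that fewer cells of a type and less RNA per cell cannot be told apart.

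The piglet is born with red cells made before birth, a circulation rich in granulocytes and an immune system that has met few antigens. The placenta of the pig lets hardly any maternal antibody through, and the newborn takes it up from colostrum. Over the following weeks cytotoxic and helper T cells, natural killer (NK) cells and B cells expand in blood, and red cells are replaced by those made after birth.

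HBB, the beta chain of haemoglobin, made up 44.2% to 45.0% of the summed mRNA FPKM in the D0 pigs and 32.8% to 32.9% in the D28 pigs. Of 14 markers of liver, muscle, connective tissue and epithelium, 12 had an identifier by which they could be looked up, and 0 of these had a row in the mRNA table. The table holds only mRNAs above 0.5 FPKM in at least 1 library. Within an age the log2(FPKM + 1) values of the 2 pigs correlated across mRNAs with r = 0.994 at D0 and r = 0.988 at D28, and across lncRNAs with r = 0.765 and r = 0.757, where rows are not independent replicates. The 10 mRNAs with the highest mean FPKM held 86.9% to 89.8% of the FPKM in these 4 libraries. The median mRNA was at 0.831 and 0.864 FPKM in the D0 pigs and at 1.96 and 1.85 FPKM in the D28 pigs. Because FPKM is a share of a library, the values were compared as deposited and again after dividing each library by its median-of-ratios factor. This factor is the median, over mRNAs, of the ratio between a library's value and the geometric mean of all libraries. The factors were 0.437 and 0.455 at D0 and 1.00 and 0.971 at D28, a ratio of 2.21. The choice moved the median log2 change of all mRNAs from 0.51 as deposited to -0.0006 after scaling, a scaling that takes the typical mRNA as unchanged. Directions are therefore given under both, and the part of the falling HBB share in the results was not tested.

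Far more mRNAs rose than fell as deposited, and the balance turned after scaling. An mRNA was called where the Benjamini-Hochberg adjusted p of the limma fit did not exceed 0.05 and its log2(FPKM + 1) differed by 1.5 or more, and it passed the test where the adjusted p alone did so. As deposited, 584 of 12354 mRNAs were called higher at D28 (4.73%) and 48 were called lower (0.389%), so that 92.4% of the calls were rises. After scaling, 115 were called higher (0.931%) and 381 lower (3.08%), and 23.2% of the calls were rises. When the 10 highest mRNAs were removed and each library was rescaled to one total, 484 were called higher and 68 lower, with 87.7% rises. With a pseudocount of 0.1 the counts were 2622 and 138 as deposited and 468 and 771 after scaling. The adjusted p alone was passed by 66.9% of mRNAs upward and 5.92% downward as deposited, and by 22.2% upward and 28.0% downward after scaling. The D0 to D28 counts of the gene lists below stand beside these shares. All 115 mRNAs called higher after scaling were also called higher as deposited, and all 48 called lower as deposited were also called lower after scaling. No mRNA was called in opposite directions. Changes that kept their direction and their call under both are taken as the strongest. Genes called under 1 scaling alone, or under neither, are also described below.

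**Figure D1:**
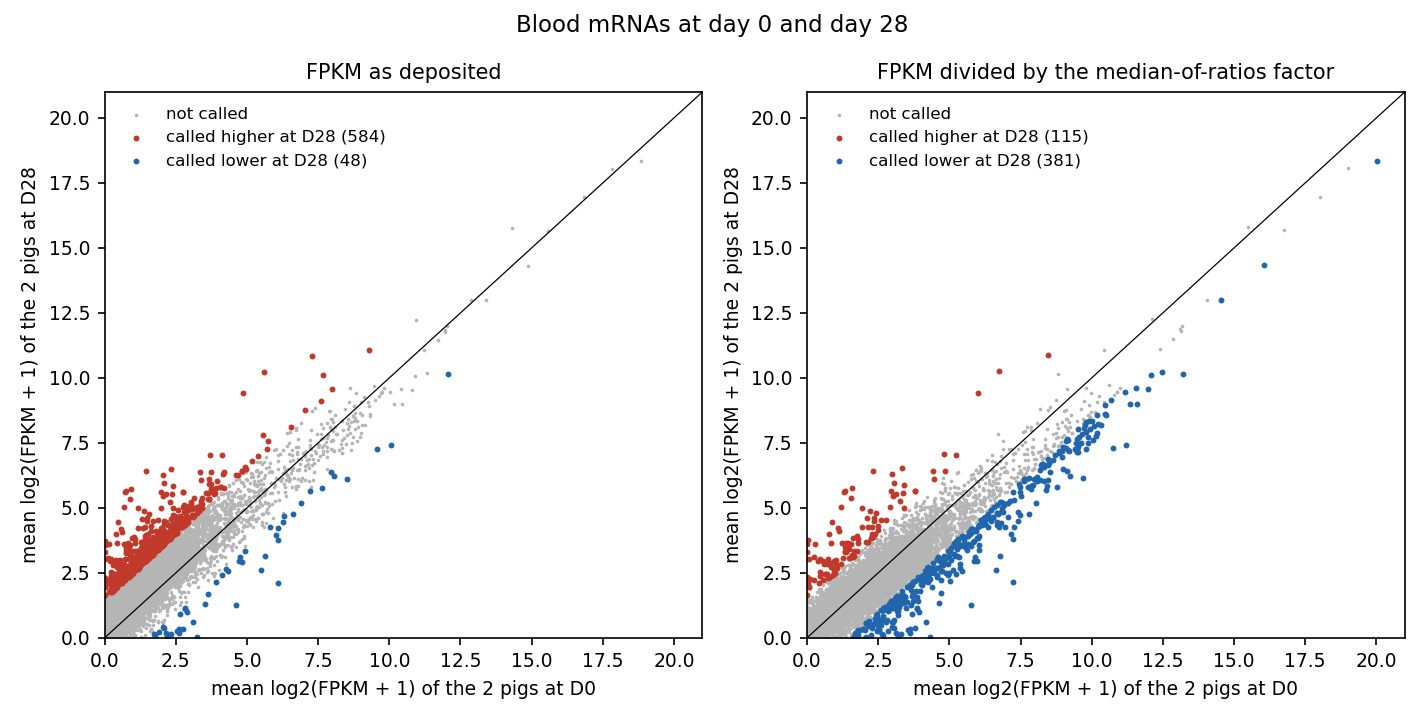
Mean log2(FPKM + 1) of the 2 D28 pigs (vertical axis) against that of the 2 D0 pigs (horizontal axis) for 12354 mRNAs, as deposited (left) and after median-of-ratios scaling (right), with called mRNAs in red (higher) and blue (lower). The cloud lies above the diagonal of equal values on the left, with 584 red and 48 blue points, and around it on the right, with 115 red and 381 blue points.

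Genes of NK cells and cytotoxic T cells rose. Of the 19 measured genes of the NK and cytotoxic list, 17 passed the test upward and 0 downward as deposited, and 15 upward and 0 downward after scaling. The median change was 1.57 as deposited and 1.34 after scaling. NKG7, a protein of cytotoxic granules (chromosome 6, 58496089 to 58497827, build Sscrofa11.1 as for all positions here), was at 4.20 and 4.19 FPKM in the D0 pigs and at 44.7 and 46.3 FPKM in the D28 pigs. This was a log2 change of 3.16 ± 0.07 (SE, adjusted p = 3.51e-08) as deposited and of 2.18 ± 0.07 after scaling (adjusted p = 2.57e-07). CCL5, a chemokine released by activated cytotoxic cells, was at 11.4 and 12.7 FPKM at D0 and at 133 and 129 FPKM at D28. The values of the 2 pigs of an age were close for both genes and those of the ages did not overlap. The granule protease GZMA (ENSSSCG00000016903, since 2 identifiers share the symbol) was at 1.75 and 1.91 FPKM at D0 and at 23.5 and 23.0 FPKM at D28. The related protease GZMH was at 0.723 and 0.684 FPKM at D0 and at 12.8 and 9.91 FPKM at D28. GNLY, the pore-forming granulysin, was at 5.45 and 6.19 FPKM at D0 and at 42.8 and 54.0 FPKM at D28.

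Little of this rise had been reached by D7. CCL5 was at 10.2 and 11.2 FPKM and GZMA at 1.28 and 1.27 FPKM in the D7 pigs, both below the D0 pigs. The share of the change reached by D7, the D0 to D7 step of mean log2(FPKM + 1) over the D0 to D28 step, was 0.14 for NKG7, -0.05 for CCL5, -0.10 for GZMA and -0.04 for GNLY as deposited. A negative share means that the D7 mean lay on the other side of D0. In the contrasts of the same fit for each step, 2 of the 19 genes rose and 7 fell from D0 to D7 after scaling, where 17.8% and 20.1% of all mRNAs did so. From D7 to D28, 15 rose and 0 fell, against 18.4% and 22.8% of all mRNAs. As deposited the counts were 1 and 3 for the first step (18.5% and 8.91% of all mRNAs) and 18 and 0 for the second (65.3% and 5.90%).

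Several of the strongest rises outside that list had the same course. TBX21, the transcription factor T-bet of type 1 T cells and NK cells, was at 1.23 and 1.32 FPKM at D0, 0.833 and 0.978 FPKM at D7 and 18.0 and 17.6 FPKM at D28. Its log2 change to D28 was 3.05 ± 0.07 as deposited (adjusted p = 4.5e-08) and 2.31 ± 0.06 after scaling (adjusted p = 8.84e-08), with a share of -0.08 by D7 as deposited. CX3CR1, the fractalkine receptor of monocytes and of cytotoxic lymphocytes, was at 1.12 and 1.43 FPKM at D0, 0.721 and 0.877 FPKM at D7 and 28.9 and 32.4 FPKM at D28. It had been placed in the monocyte list, and it was the only member of that list called higher under both scalings. ADGRG1, an adhesion receptor of cytotoxic lymphocytes, was at 3.23 and 2.71 FPKM at D0, 2.93 and 3.69 FPKM at D7 and 51.0 and 45.7 FPKM at D28. TAGLN, an actin-binding protein best known from smooth muscle, was at 0.498 and 0.488 FPKM at D0, 0.258 and 0.213 FPKM at D7 and 17.8 and 16.8 FPKM at D28. The D28 pigs stood far above both younger ages for all 4 genes, with log2 changes from D0 after scaling of 2.31 to 3.14. IL2RB, the beta chain of the interleukin 2 receptor, started to rise earlier. It was at 1.80 and 2.11 FPKM at D0, 3.36 and 3.69 FPKM at D7 and 26.6 and 26.2 FPKM at D28, with a share of 0.19.

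T cell genes rose as well. Of 27 measured T cell genes, 26 passed upward and 0 downward as deposited, and 22 upward and 2 downward after scaling (IL7R and IL2RA, receptor chains for interleukins 7 and 2, with changes of -0.40 and -0.28). The median change was 1.5 as deposited and 0.60 after scaling. Called under both scalings were CD8A, TBX21 and NFATC2. CD8A, the co-receptor of cytotoxic T cells (chromosome 3, 57999228 to 58029768), was at 1.35 and 1.58 FPKM at D0, 1.91 and 1.91 FPKM at D7 and 26.2 and 20.0 FPKM at D28. This was a log2 change of 3.28 ± 0.17 as deposited (adjusted p = 1.1e-06) and 2.5 ± 0.15 after scaling (adjusted p = 3.28e-06), with a share by D7 of 0.07. CD3E, a chain of the T cell receptor complex, was called as deposited alone, at 5.53 and 6.29 FPKM at D0 and 30.8 and 32.8 FPKM at D28. RORA, a nuclear receptor of T helper and innate lymphoid cells, was called as deposited alone too, at 1.23 and 1.58 FPKM at D0 and 9.18 and 10.5 FPKM at D28. NFATC2, a calcium-dependent transcription factor of T cells (chromosome 17, 52743570 to 52907373), was at 0.603 and 0.783 FPKM at D0, 2.14 and 2.28 FPKM at D7 and 9.78 and 10.4 FPKM at D28. Its log2 change was 2.71 ± 0.08 as deposited (adjusted p = 8.91e-08) and 2.14 ± 0.08 after scaling (adjusted p = 4.1e-07), and shares of 0.34 and 0.49 were reached by D7. Over the list, 9 genes rose and 8 fell from D0 to D7 after scaling, where 17.8% and 20.1% of all mRNAs did so. From D7 to D28, 20 rose and 0 fell, beside 18.4% and 22.8% of all mRNAs.

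**Figure D2:**
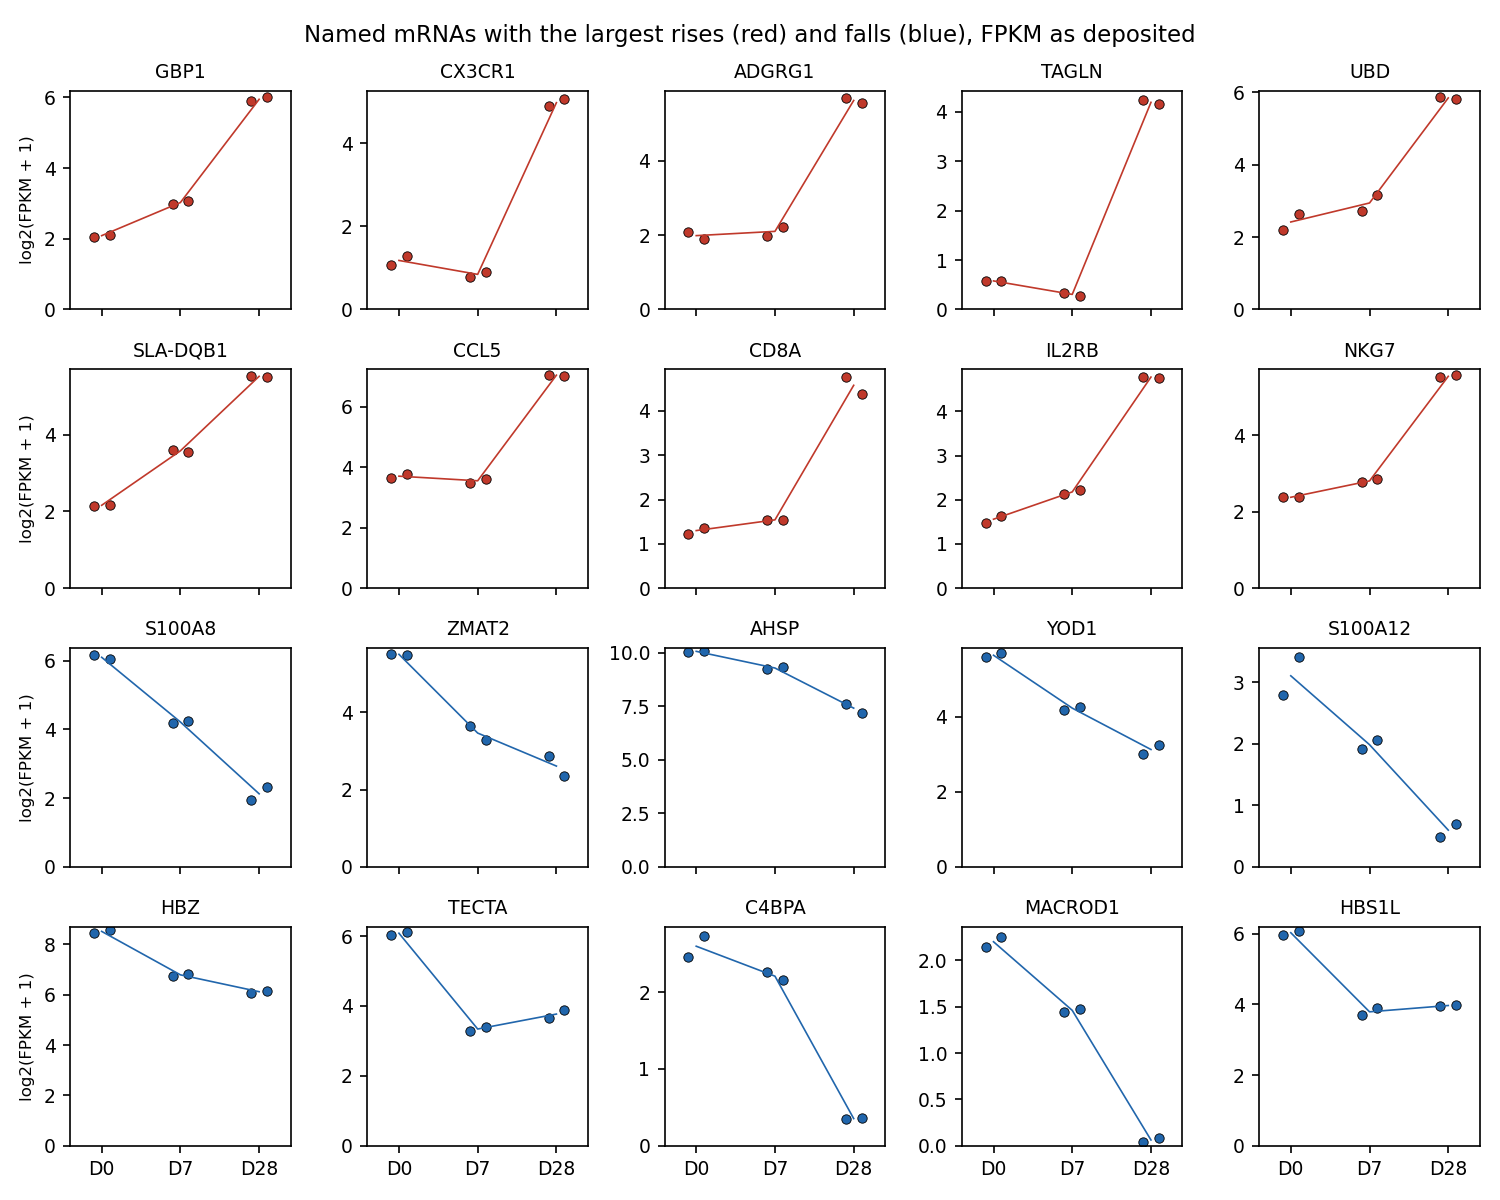
Log2(FPKM + 1) as deposited (vertical axis) in each pig at D0, D7 and D28 (horizontal axis) for the 10 named mRNAs with the largest called rise (red) and the 10 with the largest called fall (blue). Points are pigs, different animals at each age, and lines join the means of 2 pigs. NKG7, CCL5, CD8A, CX3CR1, ADGRG1 and TAGLN stayed near their D0 level at D7, whereas TECTA and HBS1L were at or below their D28 means at D7 on this scale.

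Genes of antigen presentation rose too, and more of their change had been reached by D7. Of the 7 measured genes of the MHC class II list, 7 passed upward as deposited and 6 after scaling, with 0 downward and median changes of 1.62 and 1.12. SLA-DQB1, a chain of the class II molecule that presents peptides to helper T cells, was at 3.45 and 3.49 FPKM at D0, 11.2 and 10.7 FPKM at D7 and 45.3 and 44.3 FPKM at D28. Its log2 change was 3.36 ± 0.07 as deposited (adjusted p = 3.51e-08) and 2.4 ± 0.09 after scaling (adjusted p = 3.29e-07), with shares of 0.42 and 0.55 reached by D7. SLA-DMA and SLA-DMB, which load peptides onto class II molecules, had ratios of mean FPKM at D28 over D0 of 6.01 and 4.83. CIITA, the transcriptional activator of class II genes, was at 0.266 and 0.478 FPKM at D0 and at 3.61 and 2.83 FPKM at D28. All 3 were called as deposited and not after scaling. Of the 6 measured genes of the MHC class I list, all 6 passed upward under both scalings, with medians of 2.03 and 1.14. They were called in 6 of 6 cases as deposited and in 0 of 6 after scaling. TAPBP and TAP1, which bring peptides to class I molecules, had ratios of mean FPKM of 5.50 and 5.74 as deposited and 2.49 and 2.59 after scaling. The class I activator NLRC5 and the immunoproteasome subunit PSMB9 had ratios of 6.39 and 4.92 as deposited. The median share reached by D7 was 0.38 for the class I list as deposited and 0.61 after scaling, and 0.36 and 0.56 for the class II list.

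B cell genes rose between D0 and D7 and again between D7 and D28. Of 17 measured genes, 15 passed upward and 0 downward as deposited, and 13 upward and 1 downward after scaling (FCRLA, a protein related to Fc receptors), with medians of 1.32 and 0.60. JCHAIN, which joins antibody molecules of the IgM and IgA classes in plasma cells, was at 1.15 and 0.415 FPKM at D0, 2.94 and 2.51 FPKM at D7 and 8.53 and 14.2 FPKM at D28. The 2 pigs of D0 and of D28 differed, and the ages did not overlap. The log2 change was 2.79 ± 0.25 as deposited (adjusted p = 1.9e-05) and 2.21 ± 0.32 after scaling (adjusted p = 0.00059). BANK1, an adaptor of the B cell receptor, was at 1.28 and 1.19 FPKM at D0, 3.09 and 3.96 FPKM at D7 and 6.22 and 5.16 FPKM at D28 and was called as deposited alone. By D7, 11 of the 17 genes had risen and 1 had fallen after scaling, where 17.8% and 20.1% of all mRNAs did so. From D7 to D28, 10 passed upward and 0 downward, beside 18.4% and 22.8% of all mRNAs.

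Interferon-induced genes moved early. Of 24 measured genes, 19 passed upward and 0 downward as deposited (66.9% and 5.92% of all mRNAs), with a median of 1.21. After scaling 13 passed upward and 5 downward (22.2% and 28.0% of all mRNAs), with a median of 0.32. From D0 to D7, 16 rose and 1 fell after scaling (17.8% and 20.1% of all mRNAs), with a median of 0.69. From D7 to D28, 4 rose and 16 fell (18.4% and 22.8% of all mRNAs), with a median of -0.49. As deposited the second step had 11 rises and 4 falls (65.3% and 5.90% of all mRNAs) and a median of 0.22, so that its direction depends on the scaling. MX1, an antiviral GTPase, was at 4.33 and 4.29 FPKM at D0, 27.0 and 29.0 FPKM at D7 and 22.3 and 26.4 FPKM at D28. Its share by D7 was 1.09 as deposited and 1.87 after scaling.

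Other members of the interferon list had most of their rise after D7. GBP1, a GTPase induced by interferon gamma (chromosome 4, 127425699 to 127442132), had the largest called rise among mRNAs with a symbol as deposited. It was at 3.17 and 3.34 FPKM at D0, 6.92 and 7.39 FPKM at D7 and 58.6 and 63.0 FPKM at D28. The log2 change was 3.86 ± 0.07 as deposited (adjusted p = 3.51e-08) and 2.92 ± 0.06 after scaling (adjusted p = 6.03e-08), with shares of 0.24 and 0.28. CXCL10, a chemokine induced by interferon gamma, was at 0.0452 and 0.0110 FPKM at D0, 0.170 and 0.131 FPKM at D7 and 3.54 and 3.96 FPKM at D28. The D0 level was near 0, so that the log2 change of 2.21 ± 0.08 on the log2(FPKM + 1) scale understates the fold. UBD, a ubiquitin-like modifier also induced by interferon gamma, was not in the list. It was at 3.58 and 5.22 FPKM at D0, 5.64 and 7.89 FPKM at D7 and 57.3 and 55.5 FPKM at D28, with a share of 0.15. BCL9L, a co-activator of beta-catenin, was at 0.581 and 0.631 FPKM at D0, 3.02 and 2.87 FPKM at D7 and 11.11 and 11.4 FPKM at D28.

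The 10 largest rises of all carried no symbol under either scaling. ENSSSCG00000037141 was at 0.528 and 0.785 FPKM at D0, 13.3 and 14.6 FPKM at D7 and 46.8 and 48.6 FPKM at D28. ENSSSCG00000037563 was at 1.64 and 1.87 FPKM at D0, 33.6 and 38.0 FPKM at D7 and 64.5 and 108 FPKM at D28. ENSSSCG00000036779 was at 0.645 and 0.738 FPKM at D0, 21.6 and 24.3 FPKM at D7 and 32.0 and 74.3 FPKM at D28. These genes differed from the cytotoxic genes in course, with shares by D7 of 0.65 to 0.78 as deposited and 0.81 to 0.96 after scaling. The 2 D28 pigs differed by more than a doubling for ENSSSCG00000036779 and were close for ENSSSCG00000037141.

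The picture for red cell genes depended on the scaling. Of 33 measured genes, 11 passed upward and 12 downward as deposited (median -0.04), and 2 upward and 30 downward after scaling (median -1.04). With the 10 highest mRNAs removed the median was -0.20. AHSP, the chaperone of free alpha globin (chromosome 3, 17059340 to 17060343), was at 1054 and 1075 FPKM at D0, 609.6 and 631 FPKM at D7 and 195 and 146 FPKM at D28. Its log2 change was -2.65 ± 0.13 as deposited (adjusted p = 9.73e-07) and -3.79 ± 0.14 after scaling (adjusted p = 3.16e-07), and a share of 0.29 was reached by D7 as deposited. HBZ, the embryonic zeta chain of haemoglobin, was at 351 and 382 FPKM at D0, 107 and 113 FPKM at D7 and 66.7 and 70.7 FPKM at D28. Its log2 change was -2.4 ± 0.09 as deposited (adjusted p = 3.36e-07) and -3.54 ± 0.09 after scaling (adjusted p = 7.96e-08), with a share of 0.72. HBB itself was at 473197 and 470930 FPKM at D0 and at 343904 and 320288 FPKM at D28. It did not pass the test as deposited (log2 change -0.51, adjusted p = 0.105), and it was called lower after scaling (-1.65, adjusted p = 0.0174).

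Other red cell genes had other courses. BPGM, the enzyme of 2,3-bisphosphoglycerate, which loosens the hold of haemoglobin on oxygen, was at 149 and 157 FPKM at D0, 42.2 and 46.4 FPKM at D7 and 53.5 and 56.4 FPKM at D28. It was called lower after scaling alone. CA1, the carbonic anhydrase that marks red cells made after birth, went the other way and was at 3.03 and 3.27 FPKM at D0, 6.23 and 6.45 FPKM at D7 and 13.5 and 17.3 FPKM at D28. It was called higher as deposited (log2 change 1.97 ± 0.11, adjusted p = 1.23e-06), and its change after scaling was 1.03 ± 0.11 (adjusted p = 0.00011). Over the list, 24 of 33 genes fell and 3 rose from D0 to D7 as deposited (8.91% and 18.5% of all mRNAs), and 26 and 3 after scaling (20.1% and 17.8%). From D7 to D28, 26 rose and 2 fell as deposited (65.3% and 5.90% of all mRNAs), whereas 6 rose and 17 fell after scaling (18.4% and 22.8%). The direction of the second step thus depends on the scaling.

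Neutrophil genes passed the test downward more often than upward. Of 18 measured neutrophil genes, 11 passed downward and 5 upward as deposited (median -0.48), and 13 downward and 1 upward after scaling (median -1.28). The rise that passed under both was BPI, an antibacterial granule protein, with changes of 0.48 as deposited and 0.44 after scaling. S100A8, a calcium-binding protein abundant in neutrophils and monocytes (chromosome 4, 96209670 to 96210603), had the largest called fall of all mRNAs. It was at 70.5 and 64.8 FPKM at D0, 17.3 and 17.9 FPKM at D7 and 2.83 and 3.99 FPKM at D28. The D0 mean was 19.8 times that at D28, with log2 changes of -3.97 ± 0.12 as deposited (adjusted p = 1.1e-07) and -5.11 ± 0.13 after scaling (adjusted p = 8.12e-08). A share of 0.47 as deposited was reached by D7. S100A12, its relative, was at 5.95 and 9.62 FPKM at D0, 2.77 and 3.15 FPKM at D7 and 0.408 and 0.627 FPKM at D28. The neutrophil collagenase MMP8 was at 1.61 and 1.69 FPKM at D0, 0.431 and 0.388 FPKM at D7 and 0.0422 and 0.136 FPKM at D28, and it was called lower after scaling alone. ARG1, an arginase also found in granulocytes, was at 573 and 722 FPKM at D0, 104 and 104 FPKM at D7 and 339 and 408 FPKM at D28, so that its lowest level was at D7. The summed FPKM of the 18 genes was 703 and 852 in the D0 pigs and fell to 219 and 227 in the D7 pigs. It stood at 389 and 460.4 in the D28 pigs. ARG1 held most of this sum in the D0 and D28 pigs, so the dip of the sum follows ARG1 and does not describe the list. Counted by gene, 6 of 18 rose and 6 fell in the first step under either scaling, with medians of 0.13 as deposited and 0.03 after scaling. Of all mRNAs, 18.5% rose and 8.91% fell in this step as deposited, and 17.8% and 20.1% after scaling. In the second step 4 rose and 12 fell as deposited (65.3% and 5.90% of all mRNAs). After scaling 1 rose and 13 fell (18.4% and 22.8%).

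Monocyte and stress genes gave a mixed picture. Of 9 measured monocyte genes, 4 passed upward and 3 downward as deposited, and 2 upward and 4 downward after scaling, and the median changed sign from 0.09 to -0.19. LYZ, the lysozyme of monocytes and granulocytes, was at 70.6 and 81.0 FPKM at D0, 31.5 and 34.2 FPKM at D7 and 25.8 and 28.1 FPKM at D28. CD14, the co-receptor for bacterial lipopolysaccharide, was at 4.23 and 4.28 FPKM at D0, at 9.08 and 9.73 FPKM at D7 and was at 2.02 and 2.00 FPKM at D28. The scavenger receptor CD163 was at 2.10 and 2.32 FPKM at D0, 2.70 and 2.77 FPKM at D7 and 0.5996 and 0.527 FPKM at D28. These 3 passed the test downward under both scalings and were called after scaling alone.

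Of 8 measured genes of the glucocorticoid list, 4 passed downward and 3 upward as deposited, and 5 downward and 2 upward after scaling, with medians of -0.28 and -0.95. IL1R2, a decoy receptor for interleukin 1 that is also abundant in neutrophils, was at 2.75 and 2.70 FPKM at D0, 0.788 and 0.697 FPKM at D7 and 0.217 and 0.148 FPKM at D28. It was called lower under both scalings, with log2 changes of -1.66 ± 0.10 (adjusted p = 2.11e-06) and -2.59 ± 0.10 (adjusted p = 4.32e-07). The kinase SGK1 was at 15.6 and 15.1 FPKM at D0, 17.6 and 18.6 FPKM at D7 and 5.58 and 4.59 FPKM at D28, so that its fall came after D7. DUSP1, a phosphatase, and CEBPD, a transcription factor, were called lower after scaling alone, with log2 changes of -1.51 and -1.59. ZBTB16, a zinc finger transcription factor, and PER1, a clock gene, passed upward under both scalings.

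Platelet genes rose to D7 and then fell, in both scalings. From D0 to D7, 11 of 16 genes rose and 0 fell as deposited (18.5% and 8.91% of all mRNAs), and 11 rose and 1 fell after scaling (17.8% and 20.1%). From D7 to D28, 0 rose and 13 fell as deposited (65.3% and 5.90% of all mRNAs), and 0 rose and 15 fell after scaling (18.4% and 22.8%). End to end, 5 passed upward and 6 downward as deposited (median -0.03), and 1 upward and 14 downward after scaling (median -1.02). CLEC1B, a platelet activating receptor, was at 12.4 and 11.4 FPKM at D0, 12.5 and 12.5 FPKM at D7 and 6.07 and 6.69 FPKM at D28. GNG11, a G protein subunit abundant in platelets, was at 18.2 and 20.2 FPKM at D0, 26.2 and 29.1 FPKM at D7 and 13.1 and 15.1 FPKM at D28. Both were called lower after scaling alone.

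The median change of the cell division genes changed sign with the scaling, but lay below the median of all mRNAs under both. Of 17 measured genes, 9 passed upward and 2 downward as deposited (66.9% and 5.92% of all mRNAs), with a median of 0.31 beside 0.51 for all mRNAs. After scaling 0 passed upward and 10 downward (22.2% and 28.0%), with a median of -0.46 beside -0.0006. BIRC5, the mitotic protein survivin, was the only gene of this list called lower under both scalings. It was at 26.0 and 28.7 FPKM at D0, 17.6 and 18.4 FPKM at D7 and 6.59 and 6.73 FPKM at D28, a log2 change of -1.89 ± 0.07 as deposited (adjusted p = 2.8e-07) and -3.00 ± 0.07 after scaling (adjusted p = 6.03e-08). MCM2, a helicase of DNA replication, was at 4.11 and 4.10 FPKM at D0, 0.851 and 0.744 FPKM at D7 and 2.03 and 2.30 FPKM at D28. The 4 measured genes of the fetal programme (IGF2BP2, IGF2BP3, BCL11A and LIN28B) had changes of -0.04 to 0.45 as deposited and -0.65 to -0.36 after scaling, and none was called. Of the 7 measured hypoxia genes, 5 passed upward and 0 downward as deposited, where 66.9% and 5.92% of all mRNAs did so. Their median of 0.45 was near the 0.51 of all mRNAs. After scaling 0 passed upward and 4 downward (22.2% and 28.0% of all mRNAs), and none was called under either scaling.

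**Figure D3:**
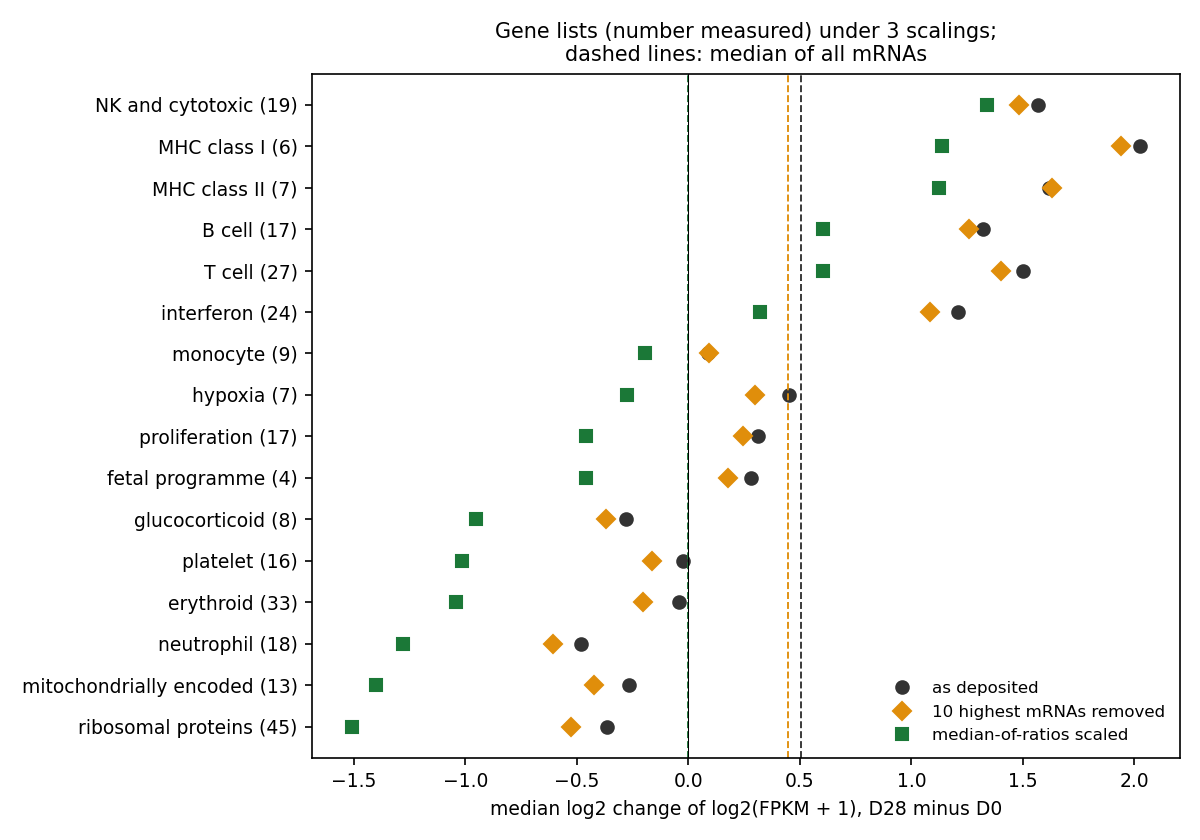
Median log2 change from D0 to D28 (horizontal axis, log2(FPKM + 1)) of each gene list, with the number of measured genes in brackets, as deposited (circles), with the 10 highest mRNAs removed (diamonds) and after median-of-ratios scaling (squares). Dashed lines give the median of all mRNAs. The lymphocyte, antigen presentation and interferon lists lay above 0 under the 3 scalings and the ribosomal, mitochondrial and neutrophil lists below 0, whereas the monocyte, hypoxia, proliferation and fetal lists changed sign. The red cell (-0.04 and -1.04), platelet (-0.03 and -1.02) and glucocorticoid (-0.28 and -0.95) lists were also below 0 as deposited and after median-of-ratios scaling.

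The translation and mitochondrial genes were lower at D28 as groups. Both groups were looked at after the first results had been seen, so their counts are a description. Of 45 ribosomal protein genes in the table, 24 passed downward and 6 upward as deposited (median -0.37), and 44 downward and 0 upward after scaling (median -1.51). RPS2, a protein of the small ribosomal subunit, was called under both and was at 261 and 272 FPKM at D0, 58.9 and 63.1 FPKM at D7 and 72.5 and 74.2 FPKM at D28. RPLP0 was at 564 and 584 FPKM at D7 and at 529 and 485 FPKM at D28, from 1385 and 1390.5 FPKM at D0. Ribosomal protein genes have many near-identical copies in the genome, so that single values are uncertain where reads could be split. Of the 13 genes encoded by mitochondrial DNA, 6 passed downward and 1 upward as deposited (median -0.27), and 12 downward and 0 upward after scaling (median -1.40). COX1, the catalytic subunit of cytochrome c oxidase, was called under both and was at 3941 and 4618 FPKM at D0, 1387 and 1418 FPKM at D7 and 1034 and 1236 FPKM at D28. Its log2 change was -1.92 ± 0.12 as deposited (adjusted p = 2.84e-06) and -3.06 ± 0.13 after scaling (adjusted p = 7.91e-07), with a share of 0.84 by D7. From D0 to D7, 0 of 45 ribosomal genes rose and 37 fell as deposited (18.5% and 8.91% of all mRNAs), and 0 rose and 41 fell after scaling (17.8% and 20.1%). From D7 to D28, 27 rose and 2 fell as deposited (65.3% and 5.90% of all mRNAs), whereas 0 rose and 29 fell after scaling (18.4% and 22.8%). Of the 13 mitochondrial genes, 8 rose and 1 fell in this second step as deposited, and 0 rose and 7 fell after scaling. The direction of the second step thus depends on the scaling for both groups.

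Single genes outside the lists completed the strongest falls. YOD1, a deubiquitinating enzyme, was at 47.0 and 51.2 FPKM at D0, 17.3 and 18.4 FPKM at D7 and 7.12 and 8.46 FPKM at D28. ZMAT2, a zinc finger protein of the spliceosome, was at 44.4 and 44.0 FPKM at D0, 11.5 and 8.73 FPKM at D7 and 6.29 and 4.11 FPKM at D28. C4BPA, a chain of the complement inhibitor C4b-binding protein, was at 4.52 and 5.66 FPKM at D0, 3.80 and 3.45 FPKM at D7 and 0.276 and 0.279 FPKM at D28. These 3 genes still fell between D7 and D28. HBS1L, which rescues stalled ribosomes, went from 62.1 and 66.7 FPKM at D0 to 11.9 and 13.9 FPKM at D7 and 14.4 and 15.0 FPKM at D28. TECTA, known as a protein of the inner ear, went from 64.7 and 68.8 FPKM at D0 to 8.69 and 9.57 FPKM at D7 and 11.7 and 13.6 FPKM at D28. As deposited the shares by D7 of HBS1L and TECTA were 1.09 and 1.19, whereas after scaling they were 0.78 and 0.88 and both genes passed the test downward from D7 to D28, so that the course after D7 depends on the scaling. MACROD1, an enzyme that removes ADP-ribose from proteins, went from 3.43 and 3.77 FPKM at D0 and 1.72 and 1.79 FPKM at D7 to 0.0316 and 0.0555 FPKM at D28. After scaling the log2 changes of these 6 genes lay between -4.02 and -3.12. Of the mRNAs without a symbol, ENSSSCG00000006588 fell from 22.8 and 24.8 FPKM at D0 to 1.33 and 1.44 FPKM at D28. ENSSSCG00000023598 fell from 8.85 and 8.15 FPKM to 0 and 0.0660 FPKM, and was still at 5.31 and 5.32 FPKM at D7.

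The genes that the study paired with lncRNAs mostly rose as deposited, where 66.9% of all mRNAs passed upward (22.2% upward and 28.0% downward after scaling). These lists were made from pairs chosen on the same libraries, so they are not independent evidence of a direction. Of 19 measured genes of lymphocyte signalling, 19 passed upward and 0 downward as deposited, and 14 upward and 3 downward after scaling. NFATC2 and TBX21 were called under both. NLRC3, a brake on innate signalling, was at 0.771 and 0.944 FPKM at D0 and at 5.32 and 5.50 FPKM at D28 and was called as deposited alone. The 3 antigen presentation genes passed upward under both scalings, and the 9 innate and death receptor genes had 8 upward as deposited, with IL17RA and CASP10 called, and 5 upward and 2 downward after scaling. The chromatin and transcription genes had 18 of 19 upward as deposited and 11 upward and 4 downward after scaling. Its one called gene was SMARCC2, a subunit of the SWI/SNF chromatin remodelling complex, at 1.70 and 1.90 FPKM at D0 and 8.44 and 8.92 FPKM at D28. The ubiquitin genes turned from 15 of 17 upward to 3 upward and 9 downward. The transporter genes had 11 of 12 upward as deposited and 1 upward and 1 downward after scaling. The mitochondria genes had 7 of 7 upward as deposited and 1 upward and 2 downward after scaling. As deposited the ubiquitin, transporter and mitochondria lists had median changes of 0.58, 0.62 and 0.59, near the 0.51 of all mRNAs. The 2 red cell and platelet genes had 1 upward and 1 downward as deposited and 2 downward after scaling.

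The called changes were partly complete by D7. The median share over the 584 mRNAs called higher was 0.32, with quartiles of 0.17 and 0.46. A share below 0.1 was found for 94 of them (16.1%), and 0.9 or more by 10 (1.71%). The 48 called falls had a median share of 0.50, and 12 of them had reached 0.9 or more. After scaling the 115 rises had a median share of 0.56 and split more widely, with 25 below 0.1 and 18 at 0.9 or more. The 381 falls had a median of 0.49, with 68 below 0.1 and 40 at 0.9 or more. On the linear FPKM scale the medians were 0.19 and 0.67 for rises and falls as deposited and 0.35 and 0.66 after scaling, a wider gap than on the log2 scale as deposited. The shares carry no test, and the median over called mRNAs differed little between the 2 D7 pigs taken singly (0.30 and 0.35 for rises as deposited).

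**Figure D4:**
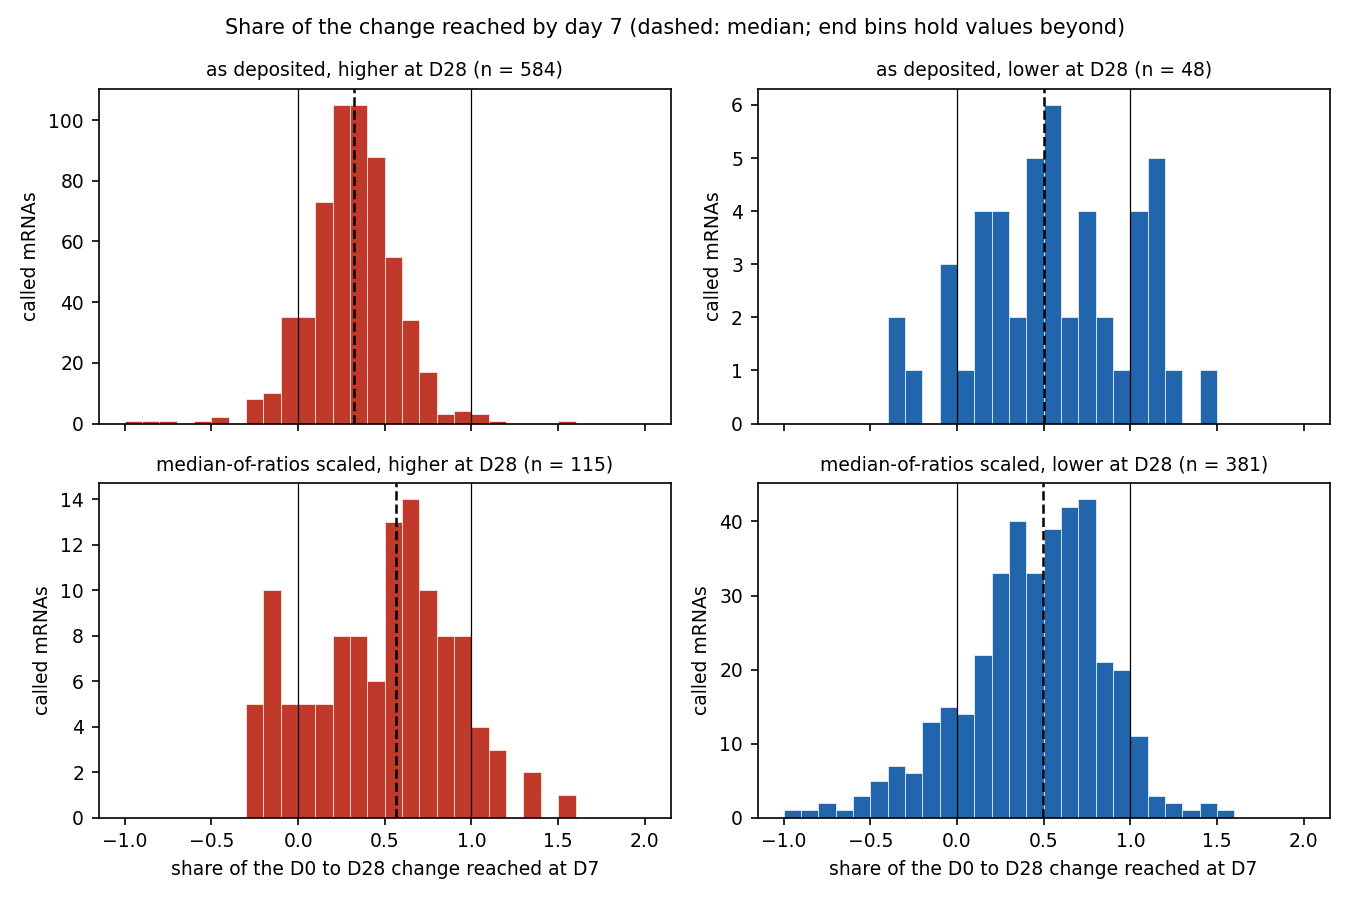
Number of called mRNAs (vertical axis) by the share of the D0 to D28 change of mean log2(FPKM + 1) reached at D7 (horizontal axis), for rises (left, red) and falls (right, blue), as deposited (top) and after scaling (bottom). Solid lines mark 0 and 1 and dashed lines the medians, which were 0.32 and 0.50 in the top row and 0.56 and 0.49 in the bottom row.

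The number of called lncRNAs depended strongly on the settings. As deposited, 14 of 5946 lncRNAs were called higher (0.235%) and 13 lower (0.219%). After scaling, 10 were called higher (0.168%) and 44 lower (0.740%). As deposited the counts were 627 and 94 with a pseudocount of 0.1, 652 and 84 with the fold limit on the ratio of mean FPKM, 2 and 5 with only D0 and D28 in the fit, and 6 and 19 without D0 pig 1. The adjusted p alone was passed by 12.4% upward and 1.55% downward as deposited, and by 4.64% and 5.80% after scaling. All 10 rises called after scaling were among the 14, and all 13 falls called as deposited were among the 44. The table holds only lncRNAs above 0.1 FPKM in at least 1 library. Positions are those of the authors' assembly on the pig genome Sscrofa11.1, and overlaps are with RefSeq genes of that build.

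Of the 5 largest called rises as deposited, 4 lay on unplaced scaffolds, whose share among all lncRNAs was not computed. TCONS_00195451 (scaffold AEMK02000695.1, 5822 to 6872, plus strand) was listed at 0 in both D0 pigs and was at 31.2 and 138 FPKM at D7 and 27.4 and 210.2 FPKM at D28. The D28 pigs differed widely, and its log2 change of 6.28 ± 1.33 had an adjusted p of 0.0221 as deposited. TCONS_00195430 (3734 to 6872 of the same scaffold and strand) was at 8.81 and 12.8 FPKM at D0, 105 and 109 FPKM at D7 and 195 and 131 FPKM at D28. TCONS_00195442 (5033 to 6872) was listed at 0 in both D0 pigs and was at 1.65 and 2.60 FPKM at D7 and 4.26 and 15.4 FPKM at D28. These 3 transcripts overlap on one strand and share an end, so that they are not independent. TCONS_00193513 (scaffold AEMK02000489.1, 51110 to 51310, plus strand) was at 106 and 92.8 FPKM at D0, 713 and 741 FPKM at D7 and 1547 and 1273 FPKM at D28. TCONS_00055095 (chromosome 14, 33945514 to 33958939, plus strand), which overlaps the RefSeq lncRNA LOC110256682, was listed at 0 in both D0 pigs, was at 3.63 and 0.250 FPKM at D7 and at 9.33 and 9.30 FPKM at D28. Without D0 pig 1, or without D0 pig 2, the calls of TCONS_00195451, TCONS_00195442, TCONS_00193513 and TCONS_00055095 were lost under both scalings, although their changes stayed between 2.55 and 6.30. Each also lost its call in at least 1 fit without a D28 pig.

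The falling lncRNAs had differing courses. TCONS_00195660 (mitochondrial DNA, 720 to 2205, plus strand) overlaps genes of a transfer RNA and a ribosomal RNA, a class the library kit depletes, and was at 14.4 and 14.9 FPKM at D0, 0.00231 and 0 FPKM at D7 and 0.386 and 0 FPKM at D28. TCONS_00113530 (chromosome 3, 128555141 to 128555611, plus strand, no RefSeq gene) was at 6.87 and 8.41 FPKM at D0, 0 in both D7 pigs and 0 and 0.0425 FPKM at D28. Its log2 change was -3.08 ± 0.11 as deposited (adjusted p = 2.84e-05) and -4.14 ± 0.10 after scaling (adjusted p = 2.4e-06). TCONS_00186608 (chromosome 9, 22829076 to 22829340, minus strand, no RefSeq gene) was at 6.23 and 6.21 FPKM at D0 and 3.54 and 3.83 FPKM at D7 and was listed at 0 in both D28 pigs, a late fall with a share of 0.22.

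TCONS_00146821 (chromosome 6, 85534557 to 85536196, plus strand), which overlaps the RefSeq lncRNA LOC100621455, was at 70.6 and 79.6 FPKM at D0, 13.8 and 14.2 FPKM at D7 and 13.2 and 12.5 FPKM at D28. TCONS_00152689 (chromosome 6, 50584753 to 50585074, minus strand) overlaps KCNN4, the calcium-activated potassium channel of red cells and lymphocytes, and was at 7.69 and 8.83 FPKM at D0, 3.33 and 3.02 FPKM at D7 and 0.606 and 0.779 FPKM at D28. Of the 13 falls as deposited, 3 overlapped a protein-coding gene and 1 lay on mitochondrial DNA, and of the 14 rises, 3 overlapped a protein-coding gene and 4 lay on unplaced scaffolds. The shares of all lncRNAs at such places were not computed, so these counts cannot show an excess. The median share by D7 was 0.80 for the 13 falls and 0.35 for the 14 rises as deposited, and 0.72 for the 44 falls and 0.63 for the 10 rises after scaling. These medians varied with the D7 pig. Taken singly, D7 pigs 1 and 2 gave 0.96 and 0.60 for the falls and 0.40 and 0.30 for the rises as deposited. After scaling they gave 0.79 and 0.68 for the falls and 0.82 and 0.56 for the rises. From D0 to D7, 0.875% of lncRNAs passed upward and 0.992% downward as deposited, and 6.05% and 4.12% after scaling. From D7 to D28 these shares were 4.24% and 1.01% as deposited and 1.92% and 4.42% after scaling.

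TCONS_00086451 (chromosome 17, 52874827 to 52890259, minus strand) lies inside NFATC2, with which the study paired it, so that reads of one could be counted for the other. It was at 0.134 and 0.195 FPKM at D0, 0.628 and 0.707 FPKM at D7 and 2.41 and 2.02 FPKM at D28. It passed the test with log2 changes of 1.46 ± 0.09 as deposited (adjusted p = 0.000327) and 1.25 ± 0.10 after scaling (adjusted p = 0.000439), and was not called under either. Its D0 level was near 0, so that the log2(FPKM + 1) scale understates its fold. The ratio of mean FPKM at D28 over D0 was 13.5 as deposited and 6.10 after scaling, beside 14.5 and 6.59 for NFATC2. Shares of 0.35 and 0.59 were reached by D7, beside 0.34 and 0.49 for NFATC2.

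**Figure D5:**
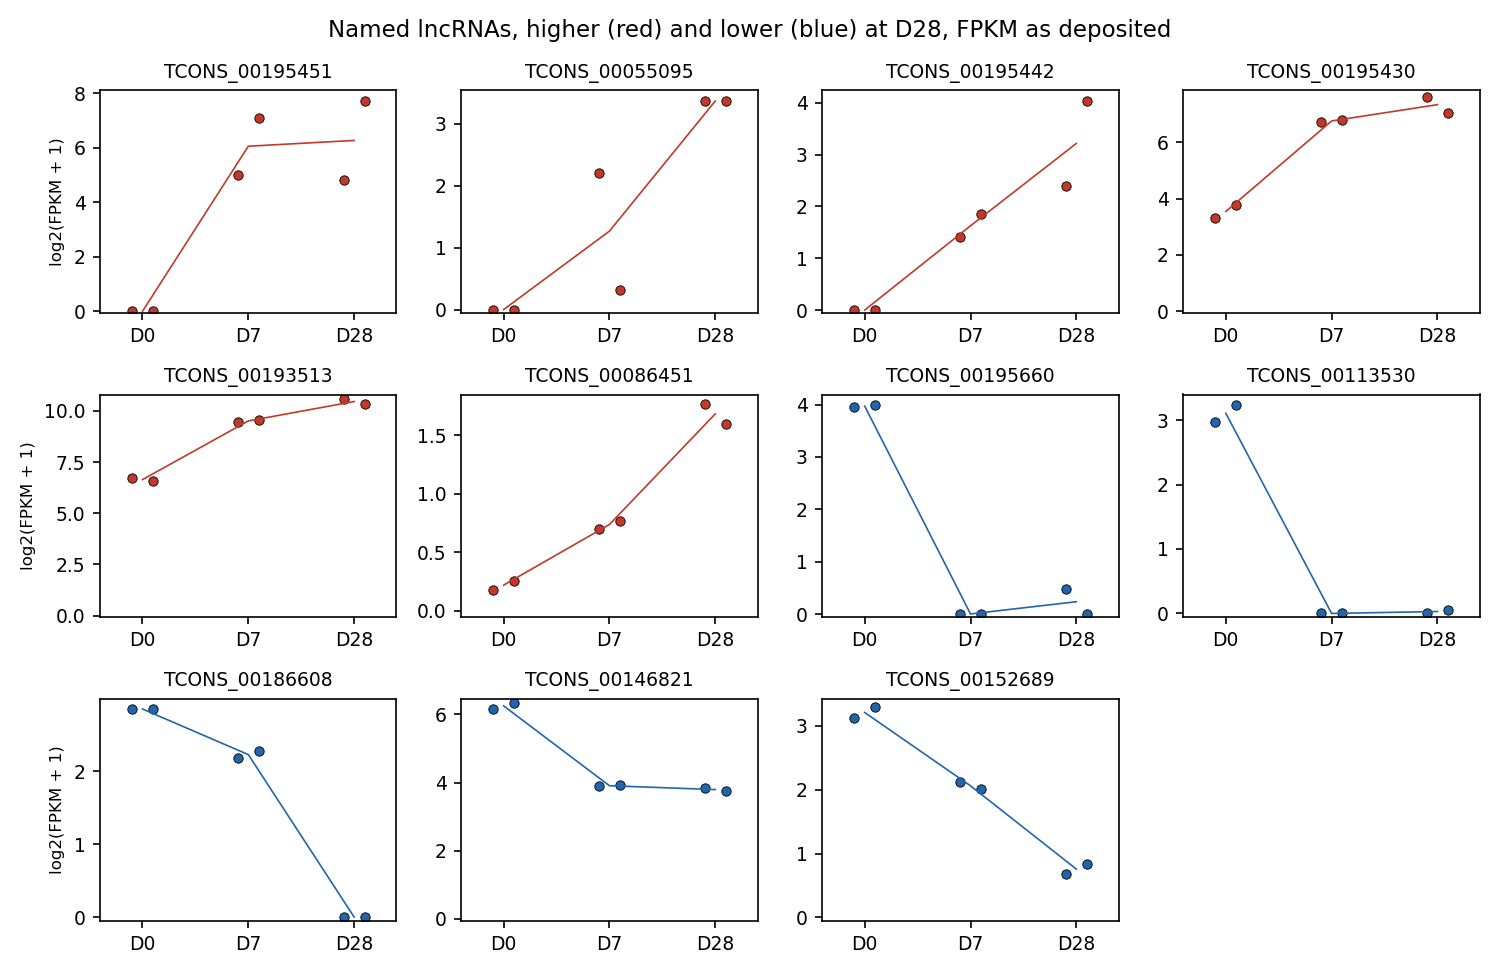
Log2(FPKM + 1) as deposited (vertical axis) in each pig at D0, D7 and D28 (horizontal axis) for the named lncRNAs, higher (red) or lower (blue) at D28. Points are pigs, different animals at each age, and lines join the means of 2 pigs. TCONS_00195451 varied most between pigs of an age, and TCONS_00195660 and TCONS_00113530 were at or near 0 by D7.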

How the data were processed

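Whole blood RNA of 10 female Qingyu pigs, 2 at each of 5 ages, was measured, and the deposited FPKM values of 12354 mRNAs and 5946 lncRNAs were used as the authors gave them. Per the submitters' processing notes the tools included CASAVA 1.8.2, HISAT2 2.0.4, StringTie 1.3.3 and Cufflinks 2.2.1. The files give no counts, so the depth behind each value is unknown and no counting interval is given. Every mRNA row exceeded 0.5 FPKM and every lncRNA row 0.1 FPKM in at least 1 library. Scaled values were divided by median-of-ratios factors from the 11527 mRNAs above 0 in all 10 libraries, also for lncRNAs. Groups were taken from the age labels, and 0 columns were left unmapped.

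Values were tested as log2(FPKM + 1) with limma 3.58.1 in R 4.3.3, with a mean-variance trend and all 10 libraries in the fit, so that the 5 ages share one estimate of the spread, and Benjamini-Hochberg adjustment over each table. This scale understates the change of low genes. An exact permutation test of 2 pigs against 2 cannot go below p = 0.333, so none was used. On simulated data for D28 against D0 the limma step called 199 of 200 changed mRNAs among 12354 and 200 of 200 changed lncRNAs among 5946, with 0 false calls in each. The planted changes exceeded the call limit and lay in rows above the median D0 level. Noise was normal and the other rows had no shift. The outcome therefore checks that the code runs as intended, and gives no error rate for the real data. The D7 contrasts were added after the data had been seen. Tables were read with pandas 2.3.3 under Python 3.11.15.

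Named were the 10 largest called rises and falls (with a symbol, plus at most 2 identifiers each way without one), the 5 largest called rises and falls of lncRNAs, 2 to 4 called examples per gene list, and NFATC2 with its overlapping lncRNA. List members outside that rule (IL7R, IL2RA, FCRLA, BPI, HBB, ZBTB16, PER1, MX1 and the fetal genes among them) were named after their values were seen. The comparison and the lists were chosen with earlier results of these data known, and the ribosomal and mitochondrial lists were added after the data had been seen. Symbols came from reference tables for 9742 of 12354 mRNAs, 7 of them from pairs in the study's supplement. Alternatives were another pseudocount, fit, filter, fold limit, scaling and set of factors, a replicate block and leaving out each pig. Some results are not reported here.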

Additional observations from a re-analysis of the deposited data

How the results depend on the processing

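With a pseudocount of 0.1 the mRNA calls were 2622 higher and 138 lower as deposited and 468 and 771 after scaling, and the lncRNA calls were 627 and 94, and 210 and 271. With the fold limit set on the ratio of mean FPKM these were 3441 and 172, 601 and 902, 652 and 84, and 214 and 290. Both settings admit low rows that the log2(FPKM + 1) scale holds under the fold limit. With only D0 and D28 in the fit, lncRNA calls were 2 and 5 as deposited and 2 and 12 after scaling. In place of the scaled values, removing the 10 highest mRNAs gave 484 mRNAs higher and 68 lower and 16 lncRNAs lower, factors from D0 and D28 alone gave 6 lncRNAs higher and 26 lower, and factors from the lncRNAs gave 67 lower. On the linear scale the median shares by D7 were 0.190 and 0.666 (mRNA rises and falls as deposited), 0.353 and 0.659 (scaled), 0.198 (lncRNA rises as deposited), and 0.406 and 0.838 (lncRNA rises and falls, scaled). With a pseudocount of 0.1 they were 0.361 and 0.622 for mRNA rises as deposited and scaled, 0.475 for lncRNA rises as deposited and 0.60 for scaled lncRNA falls. Leaving out 1 pig gave 6 to 15 lncRNAs higher as deposited and 4 to 10 after scaling, lowest (6 and 4) without D0 pig 1. It gave shares of 0.518 to 0.563 for scaled mRNA rises, 0.471 to 0.502 for scaled mRNA falls and 0.553 to 0.822 for scaled lncRNA rises. Where no cause is named, it was not tested. The balance of calls turned for scaled mRNAs when the 10 highest were removed, from 23.2% to 87.7% rises.

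The pig numbers did not pair the samples, as deviations from the age means correlated between D0 and D28 with r = 0.078 across mRNAs and 0.027 across lncRNAs. With the replicate block the calls were 584 higher and 48 lower, 115 and 381, 14 and 13, and 10 and 42.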

Other observations

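Among the 10 mRNAs with the highest mean FPKM, several without a symbol had uneven courses, and they are named here after their values were seen. ENSSSCG00000034995 was at 112857 and 123713 FPKM at D0, was listed at 0 and 0.0145 FPKM at D7 and stood at 150727 and 105994 FPKM at D28. ENSSSCG00000038379 had the opposite course, with 0.003057 and 0.008372 FPKM at D0, 34457 and 31600.5 FPKM at D7 and 0.006799 and 0.163 FPKM at D28. Both pigs of each age were on the same side for both identifiers. Whether reads of one were assigned to the other at D7 was not tested and cannot be settled from FPKM. ENSSSCG00000019556 was at 19873 and 20872 FPKM at D0, 19996 and 20332 FPKM at D7 and 59293 and 53481 FPKM at D28. TPT1, a translationally controlled growth-related protein, was at 10304 and 11143 FPKM at D0, 6620 and 6809 FPKM at D7 and 7700 and 8652 FPKM at D28.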
